A study of Sus scrofa with 14 samples.

Results

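KLF10 and the other Krüppel-like factors were followed in the jejunal mucosa of 7 pigs exposed to digested onion. The members were the array probes whose RefSeq accession belongs to a gene with a symbol of KLF and a number, or that the study's own list of changed genes names so. They were 17 of the 3020 genes named here (KLF1 to KLF17), with 43 of the 43603 probes. Of these probes 42 were named by accession, and a probe of KLF9 was named through the study's list. KLF9, KLF10 and KLF15 were selected on their onion over Sd ratios, since they are on that list of changed genes, and KLF10 and KLF4 were chosen with their ratios known. Ratios of these 4 genes are therefore described and not tested.

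Krüppel-like factors are transcription factors that bind GC-rich and CACCC elements through zinc fingers at their C-terminal end, and they differ mainly in the domains that recruit partners. KLF10, also known as TGF-beta-inducible early gene 1 (TIEG1), is an early response gene of TGF-beta. With its closest relative KLF11 and with KLF9, KLF13, KLF14 and KLF16 it recruits the SIN3 corepressor. In the gut epithelium KLF4 is known as a factor of differentiated cells that have left the cycle and of goblet cells, and KLF5 as a factor of dividing crypt cells.

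The samples were mucosal scrapings of jejunal segments perfused for 6 h in male piglets of 5 weeks and 8.2 kg under anaesthesia, with 1 array for each segment. Each pig gave a segment with saline digest (Sd, the digestion control) and a segment with onion digest. Pigs 1, 2 and 4 received digested yellow onion (YOd, n = 3), pigs 5, 6, 7 and 8 digested white onion (WOd, n = 4), and all 7 gave an Sd array. All segments were thus cannulated, perfused and exposed to digestion fluid. The onion digests and the control digest were also diluted in different fluids and to different extents, and this cannot be told apart from the onion. YOd and WOd were given to different pigs. Scrapings hold many cell types, so that fewer cells of a type and less RNA for each cell cannot be told apart.

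Between 50.05% and 70.7% of the probes were well above background on an array. The Sd arrays of pigs 2 and 7 came from another slide and a later scan session than their onion arrays, whereas both arrays of pigs 1, 4, 5, 6 and 8 shared a slide. All 8 enterocyte genes named on the array, of 13 listed, were well above background on all 14 arrays, although 7 of them were saturated on at least 1. So were 19560 of the 43603 probes, so that this alone does not single out mucosa. Smooth muscle, endothelial and myeloid genes were also present on all arrays, with 4 of 5, 5 of 5 and 7 of 7 named genes well above background throughout. Of the lymphocyte genes, 5 of 9 were.

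Of the 43 Krüppel-like factor probes, 31 were above the detection floor on all 14 arrays, 8 on some arrays and 4 on none. By gene, 13 of the 17 were above it on all arrays. KLF1, KLF8 and KLF12 were above it on some arrays, and KLF14 on none. No Krüppel-like factor probe was saturated. Levels are given as the log2 of the signal over the 75th percentile of the array, so that 0 is the signal of that percentile and the floor is at -4.43. Probes differ in brightness for reasons of their sequence, and a level was only compared with other levels of the same probe. A ratio is the log2 level of the onion segment minus that of the Sd segment of the same pig. Each gene is represented by its probe 1, which is the probe of the study's list or otherwise the brightest probe.

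KLF10 was higher in the onion segment in 6 of 7 pigs, as were 9.94% of all probes in at least 6. In the YOd pigs the Sd and onion levels of KLF10 were 2.84 and 3.68 in pig 1, 3.35 and 3.29 in pig 2, and 2.82 and 3.84 in pig 4. In the WOd pigs they were 3.49 and 4.06 in pig 5, 2.80 and 3.54 in pig 6, 3.59 and 4.11 in pig 7, and 2.36 and 3.001 in pig 8. Pig 2 had nearly the same level in both segments, and the other 6 pigs moved in one direction from very different starting levels. The 4 highest arrays of the 14 were onion arrays and the 4 lowest were Sd arrays. In between the groups overlapped, because the Sd arrays alone ranged from 2.36 to 3.59.

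The KLF10 ratios were 0.85, -0.06 and 1.02 in pigs 1, 2 and 4, and 0.57, 0.74, 0.52 and 0.64 in pigs 5 to 8. The mean was 0.61 ± 0.34 (SD, n = 7), a fold change of 1.53, and 4 pigs exceeded 1.5-fold. Fitted with the pig as a block, the YOd/Sd ratio was 0.60 (SE 0.23) and the WOd/Sd ratio was 0.62 (SE 0.15). Their difference, YOd minus WOd, was -0.02 (SE 0.28). The similar means came from different spreads, since the 4 WOd pigs lay between 0.52 and 0.74 and the 3 YOd pigs between -0.06 and 1.02. The YOd/Sd value was 0.93 without pig 2, 0.39 without pig 4, and 0.29 without scaling between the arrays. In the 5 pigs with both arrays on 1 slide the ratio was 0.76 ± 0.18 (SD, n = 5), with all 5 pigs above 0. KLF11 was also above 0 in all 5, at 0.60 ± 0.40 (SD, n = 5). The share of all probes with that pattern was not taken. Leaving out pigs 2 and 7 was a choice made after seeing the data, and it drops the only pig where KLF10 was not higher. Pig 2 was also the pig with the least change over the whole array, with 5.22% of the probes past 1.5-fold against 14.1% to 25.9% in the other pigs.

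**Figure D1:**
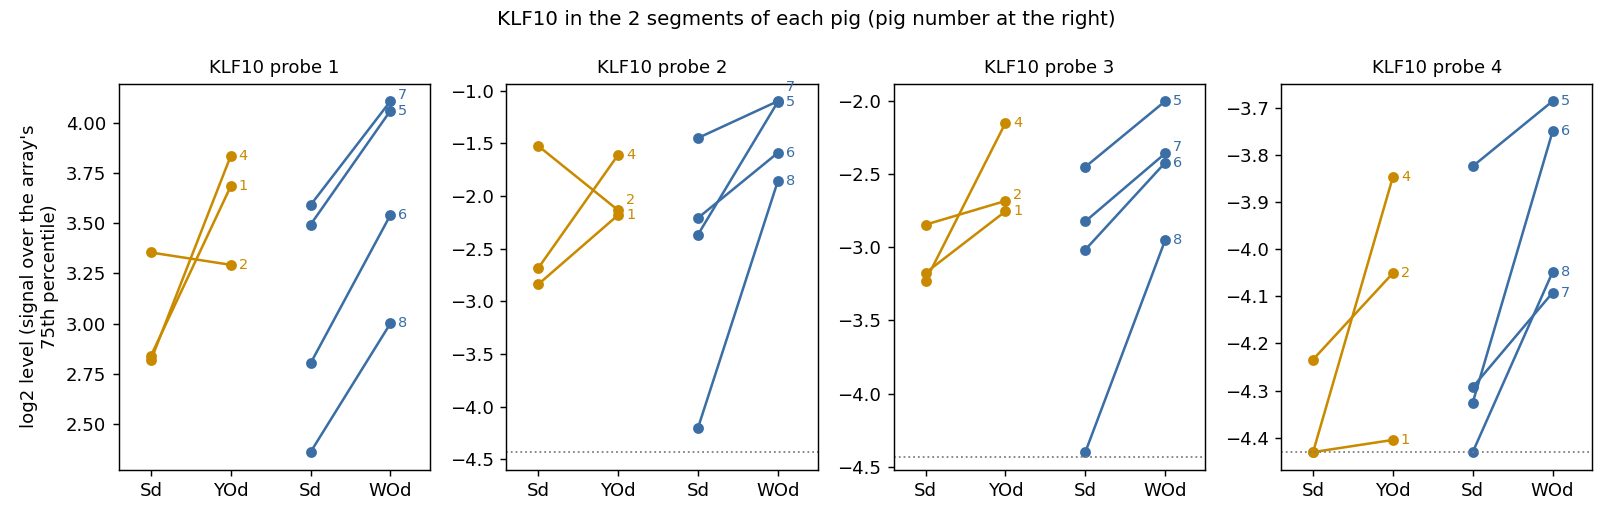
Log2 level of the 4 KLF10 probes (signal over the 75th percentile of the array, a separate axis for each probe) in the Sd segment and the YOd (pigs 1, 2, 4) or WOd (pigs 5 to 8) segment, with a line for each pig and the floor of -4.43 dotted where a probe comes near it. Probe 1 was higher after onion in 6 of 7 pigs, with pig 2 as the exception, and the dim probe 4 spans less than 1 log2 unit above the floor.

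The other 3 KLF10 probes were dim, and their means had the same direction. KLF10 probe 2 had ratios of 0.66, -0.61 and 1.07 in the YOd pigs 1, 2 and 4, and 1.26, 0.62, 0.35 and 2.34 in the WOd pigs 5 to 8. The largest of these came from an Sd array of pig 8 at -4.20, just above the floor. The mean ratio over 7 pigs was 0.81 for probe 2, 0.66 for probe 3 and 0.30 for probe 4. Probe 4 was above the floor on 11 arrays, and its ratios understate a change where an array lies at the floor. Probes 3 and 4 were above 0 in all 7 pigs, as were 1.34% of all probes, and pig 2 had 0.16 and 0.18. The levels of probes 2, 3 and 4 followed those of probe 1 over the 14 arrays with r = 0.84, 0.89 and 0.63. For the ratios over the 7 pigs, r with probe 1 was lower, at 0.58, 0.54 and 0.41.

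KLF10 was among the upper ratios of its family in most pigs without being the highest in each. Of the Krüppel-like factor genes measured above the floor in both segments of a pig (13 to 16 genes), KLF10 had the highest ratio in pig 6. It ranked 2 in pigs 4, 5 and 8, 3 in pigs 1 and 7, and 12 of 15 in pig 2. KLF11 and KLF2 exceeded it in pig 1, KLF11 in pig 4, KLF12 in pig 5, KLF6 and KLF3 in pig 7, and KLF7 in pig 8. Over the 7 pigs KLF10 had the highest mean ratio of the 16 genes with a measurement, followed by KLF11 at 0.42 and KLF7 at 0.35. The SD of the ratios over the pigs was 0.34 for KLF10, 0.55 for KLF11 and 1.11 for KLF7. Against all probes of its own pig, the KLF10 ratio lay between the percentiles 85.1 and 97.9 in the 6 pigs where it was higher, and at 33.2 in pig 2. Because the family was assembled around KLF10 with these ratios known, its rank is a description.

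**Figure D2:**
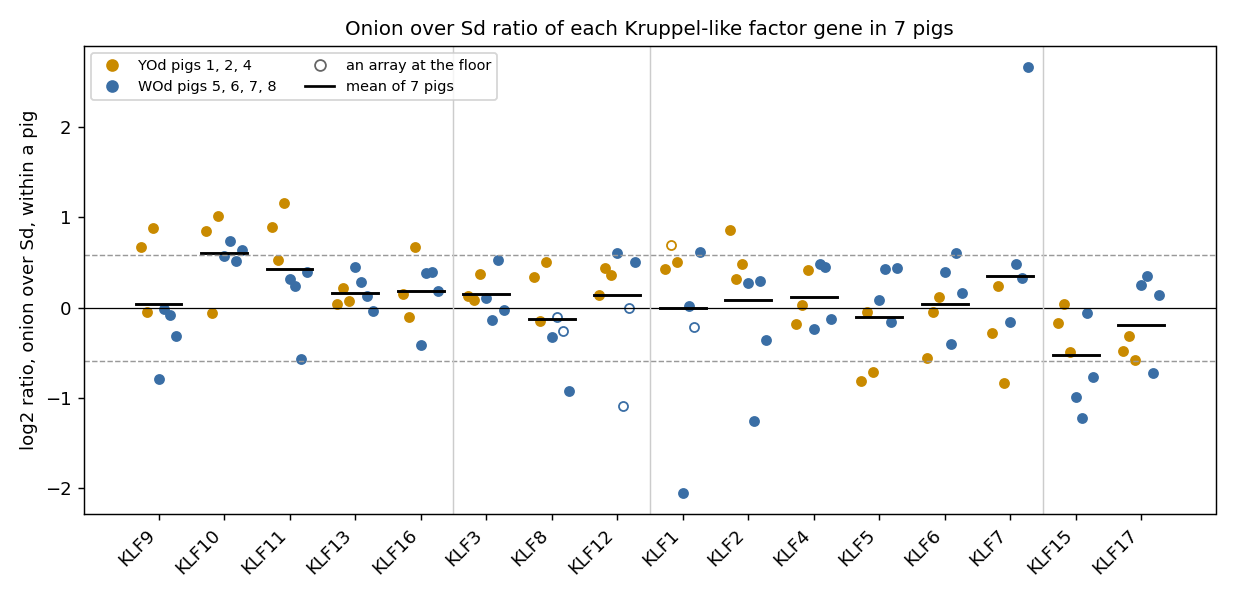
Log2 ratio of onion over Sd in each pig for the 16 Krüppel-like factor genes above the floor on any array, ordered as SIN3-binding, CtBP-binding, activating and other members, with black bars at the mean of 7 pigs and dashed lines at 1.5-fold. Open points have an array at the floor. KLF10 has 6 of 7 points between 0.52 and 1.02, KLF15 has 6 of 7 points below 0, and KLF7 has a mean of 0.35 with pig 8 at 2.66.

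A probe was called affected at a raw limma p under 0.05 and a fold change over 1.5. In YOd/Sd, 4 of the 38 Krüppel-like factor probes tested were affected, beside 4.96% of all probes. Of these, 3 were higher, beside 2.47% of all probes, and 1 was lower, beside 2.49%. In WOd/Sd, 4 of 38 were affected, beside 1.27% of all probes. Here 3 were higher, beside 0.868% of all probes, and 1 was lower, beside 0.405%. Over the 7 pigs, 3 of 38 were affected, beside 0.848% of all probes. All 3 were KLF10 probes and higher, beside 0.577%. Without pig 2 the count in YOd/Sd was 10, beside 3357 of all 26685 probes tested, so that the whole array moved too. Over the 7 pigs the count was 5, 6 and 1 without pigs 2, 7 and 8. Of all probes, 298 of 25515, 349 of 25712 and 316 of 25788 were then affected. The comparison of YOd with WOd effects had 5 of 39 affected, beside 5.67% of all probes. It had 0 and 1 without pigs 1 and 4, beside 760 of 28728 and 823 of 28850 probes. As the rule used these contrasts, nothing is read from the counts that hold KLF10, KLF9 or KLF15. Of the 30 probes outside KLF10, KLF4 and the study's list, 25 were tested. The 25 still held KLF9 probes 2 and 3, although KLF9 was selected on its ratio. Neither of these had a raw limma p under 0.05 in YOd/Sd, in WOd/Sd or over the 7 pigs. In YOd/Sd 3 of the 25 were affected (both brighter KLF11 probes higher, KLF2 probe 2 lower), and 8 had a raw limma p under 0.05. In WOd/Sd and over the 7 pigs 0 were affected by limma, with 0 and 1 probes at a raw p under 0.05. No probe of any gene (0%) passed a limma adjusted p of 0.05 in these 4 comparisons, while 3172, 802, 1380 and 1818 probes had a raw p under 0.05. The tested Krüppel-like factor probes had a median ratio of 0.06 after YOd and 0.12 after WOd, beside 0.07 and 0.04 for all probes.

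KLF11, the closest relative of KLF10 and also inducible by TGF-beta, was higher after YOd in all 3 pigs. Probe 1 of KLF1, KLF2, KLF3, KLF12 and KLF13 was also higher in all 3, and the share of all probes with that pattern was not taken. The Sd and YOd levels of KLF11 were -1.55 and -0.66 in pig 1, -2.23 and -1.70 in pig 2, and -2.09 and -0.93 in pig 4. The WOd pigs were mixed, at -1.13 and -0.81 in pig 5, -2.16 and -1.93 in pig 6, -1.75 and -2.32 in pig 7, and -2.29 and -1.89 in pig 8. Like KLF10, KLF11 was thus higher in 6 of 7 pigs, as were 9.94% of all probes in at least 6. The YOd/Sd log2 ratio was 0.86 (standard error 0.17, limma adjusted p = 0.414) and that of WOd/Sd was 0.10 (standard error 0.21, limma adjusted p = 1.00). The effect of YOd exceeded that of WOd by 0.76 (standard error 0.29, limma adjusted p = 0.743). That difference was 0.75 without pig 1 and 0.61 without pig 4, which did not pass the raw threshold, and 0.54 without pig 7, which was below 1.5-fold. It was 0.49 without scaling between the arrays and 0.69 with the authors' processed values, neither past the raw threshold, and 0.56 with normexp, below 1.5-fold. Without scaling between the arrays the YOd/Sd ratio was 0.55 and below 1.5-fold. KLF11 probe 2 gave 0.68 (standard error 0.28) for YOd/Sd, although pig 2 went to -0.18. For WOd/Sd it gave 0.36 (standard error 0.29), with pig 8 at 1.29. Its difference of YOd and WOd effects was 0.33 (standard error 0.47) and not a call. The dim probe 3 gave a difference of -0.73 (standard error 0.93). The difference seen with probe 1 was thus not borne out by the other KLF11 probes.

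The level of KLF11 ran opposite to the 75th percentile by which each array was scaled, with r = -0.73 over the 14 arrays, which are 2 arrays of each of 7 pigs. Over all probes tested this r had a median of -0.14, a 5th percentile of -0.69 and a 95th percentile of 0.61, and for KLF10 it was -0.41. The log2 ratio of that percentile, onion over Sd, was -0.18, -0.12 and -0.62 in the YOd pigs 1, 2 and 4, and lay between -0.19 and 0.09 in the WOd pigs. It was thus lowest in pig 4, the pig with the highest KLF10 and KLF11 ratios. The part of the scaling in these values was not tested further than by the fits without it. The sums of the enterocyte, goblet and myeloid genes were led by probes saturated on at least 1 array, and they ran opposite to the scaling percentile with r = -0.99, -0.96 and -0.91. They were therefore not used as a measure of these cells. Without the saturated genes, a choice made after seeing the data, the r with KLF11 was 0.09 for the 1 enterocyte gene left (SLC15A1), 0.14 for 4 goblet genes and 0.04 for 6 myeloid genes. The r with KLF10 was 0.05, 0.08 and -0.20. The sum of the 5 enteroendocrine genes, none of them saturated, had r = 0.68 with KLF11 and 0.07 with KLF10. That of 14 TGF-beta ligands and receptors, none saturated, had r = 0.65 with KLF11 and 0.20 with KLF10. It also ran opposite to the scaling percentile, with r = -0.71. With KLF11 the other sums of unsaturated genes had r between -0.36 and 0.44. The part of cell composition in either gene was not tested.

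KLF15 went the other way from KLF10 in most pigs. KLF15 is a glucocorticoid-induced factor of amino acid and glucose metabolism. Its ratios were -0.17, 0.04 and -0.49 in the YOd pigs 1, 2 and 4, and -0.99, -1.22, -0.06 and -0.77 in the WOd pigs 5 to 8. It was thus lower in 6 of 7 pigs, as were 2.92% of all probes in at least 6, and pigs 2 and 7, whose arrays were on different slides, were close to 0. The fitted ratio was -0.21 (standard error 0.17) after YOd and -0.76 (standard error 0.22) after WOd, the latter a fold change of 0.59. Without pig 6 the WOd/Sd value was -0.61. In the 5 same-slide pigs the mean was -0.73 ± 0.41 (SD, n = 5), with 0 of 5 above 0. The share of all probes with that pattern was not taken. The levels themselves differed widely between pigs, from 0.01 in pig 2 to 2.36 in pig 1 on the Sd arrays.

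KLF9, a factor induced by glucocorticoid and thyroid hormone, was higher after YOd in pigs 1 and 4 and at or below its Sd level in the WOd pigs. Its ratios were 0.67, -0.05 and 0.89 in the YOd pigs and -0.79, -0.02, -0.08 and -0.31 in the WOd pigs. The YOd mean was 0.51 (standard error 0.21) and the WOd mean -0.30 (standard error 0.19), and their difference was 0.81 (standard error 0.30). The YOd mean was 0.78 without pig 2 and 0.31 without pig 4, and the WOd mean was -0.14 without pig 5. In the same YOd pigs KLF9 started from levels of 3.52, 2.33 and 1.82, so the spread between Sd arrays exceeded the onion ratios. KLF9 and KLF15 had the highest correlation of levels among the 78 pairs of the 13 genes above the floor on all arrays (r = 0.76 over 14 arrays, median of all pairs 0.10). Of the dim probes, KLF9 probe 2 gave 0.39 and -0.23 and KLF9 probe 3 gave 0.07 and -0.54. Of the clock and glucocorticoid-responsive genes (4 named of 17), 0 were affected in YOd/Sd, WOd/Sd or over the 7 pigs, beside 4.45%, 1.19% and 1.24% of all named genes, and so few genes show nothing about the list.

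**Figure D3:**
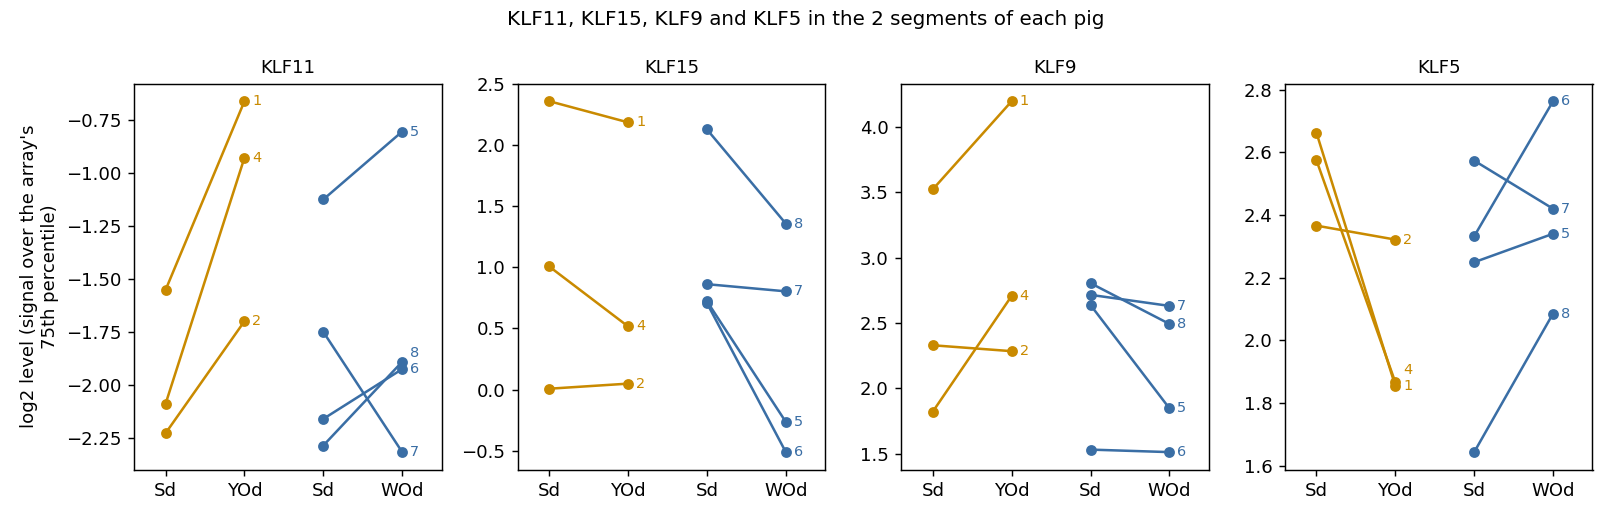
Log2 level (signal over the 75th percentile of the array, a separate axis for each gene) of KLF11, KLF15, KLF9 and KLF5 in the Sd and onion segments, with a line for each pig. KLF11 is higher in all 3 YOd pigs, KLF15 is lower after WOd in all 4 pigs, KLF9 is higher in 2 of 3 YOd pigs, and KLF5 is lower in YOd pigs 1 and 4.

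The remaining SIN3-binding members moved little. KLF13 had ratios between -0.03 and 0.45, with a mean of 0.16 (standard error 0.10, limma adjusted p = 0.860). It was higher in 6 of 7 pigs, as were 9.94% of all probes in at least 6. KLF13 probe 2 gave a mean of 0.14. KLF16 had a mean of 0.18 (standard error 0.14, limma adjusted p = 0.860), and its ratios ran from -0.41 in pig 5 to 0.67 in pig 4. KLF14 was below the floor on all 14 arrays, well above background on 1, and gave no ratio.

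Of the members that bind the corepressor CtBP, KLF3 was bright and even. Its levels lay between 4.86 and 5.75 on the Sd arrays, 4.94 and 5.44 on the YOd arrays, and 5.29 and 6.01 on the WOd arrays, and the groups overlapped. The ratio over 7 pigs was 0.15 (standard error 0.11, limma adjusted p = 0.860). The other 3 KLF3 probes followed it poorly, with r of -0.30, 0.47 and 0.36 for the levels over 14 arrays. KLF8 was near the floor and above it on 12 arrays. Its effects were 0.23 (standard error 0.18) for YOd/Sd and -0.40 (standard error 0.19) for WOd/Sd, a difference of 0.64 (standard error 0.27, limma adjusted p = 0.743). Without pigs 1, 4, 5 and 8 in turn the difference was 0.58, 0.50, 0.66 and 0.46 and not past the raw threshold. It was 0.36 without scaling between the arrays, 0.34 with normexp and 0.16 with the authors' processed values, none of them a call. With quantile normalization and without a filter on dim probes it was 0.63 and 0.64, with raw limma p of 0.0525 and 0.0542. KLF12 was above the floor on 11 arrays, with ratios of 0.14, 0.44 and 0.36 in the YOd pigs and 0.60, -1.09, 0.00 and 0.51 in the WOd pigs, where an array of pig 6 and both of pig 7 were at the floor. Its ratio over the 7 pigs was 0.14 (standard error 0.19, limma adjusted p = 0.907), and 0.34 without pig 6.

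KLF4 was measured by 7 probes, all above the floor on all arrays, and it showed no common direction. The Sd and onion levels of KLF4 were 4.65 and 4.47 in pig 1, 3.05 and 3.08 in pig 2, and 3.75 and 4.17 in pig 4. They were 4.32 and 4.09 in pig 5, 3.83 and 4.32 in pig 6, 3.79 and 4.24 in pig 7, and 4.11 and 3.99 in pig 8. Both arrays of pig 2 were the lowest of the 14, and those of pig 1 were the highest. The Sd arrays alone thus spanned more than any difference between the segments of a pig. The ratios ran from -0.24 to 0.48 with a mean of 0.12 ± 0.32 (SD, n = 7), and 0 pigs exceeded 1.5-fold. The fitted ratio was 0.09 (standard error 0.17) after YOd and 0.14 (standard error 0.19) after WOd. Over the 7 probes, the YOd/Sd value lay between -0.06 and 0.18 and the WOd/Sd value between 0.01 and 0.18. The levels of the 6 further probes followed those of probe 1 over the arrays with r from 0.74 to 0.99. For the ratios over the 7 pigs, r with probe 1 was 0.95, 0.86, 0.70 and 0.75 for probes 2 to 5. It was 0.0002 and 0.22 for probes 6 and 7. Without scaling between the arrays the YOd/Sd value turned to -0.22, where the median of all probes was -0.23.

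**Figure D4:**
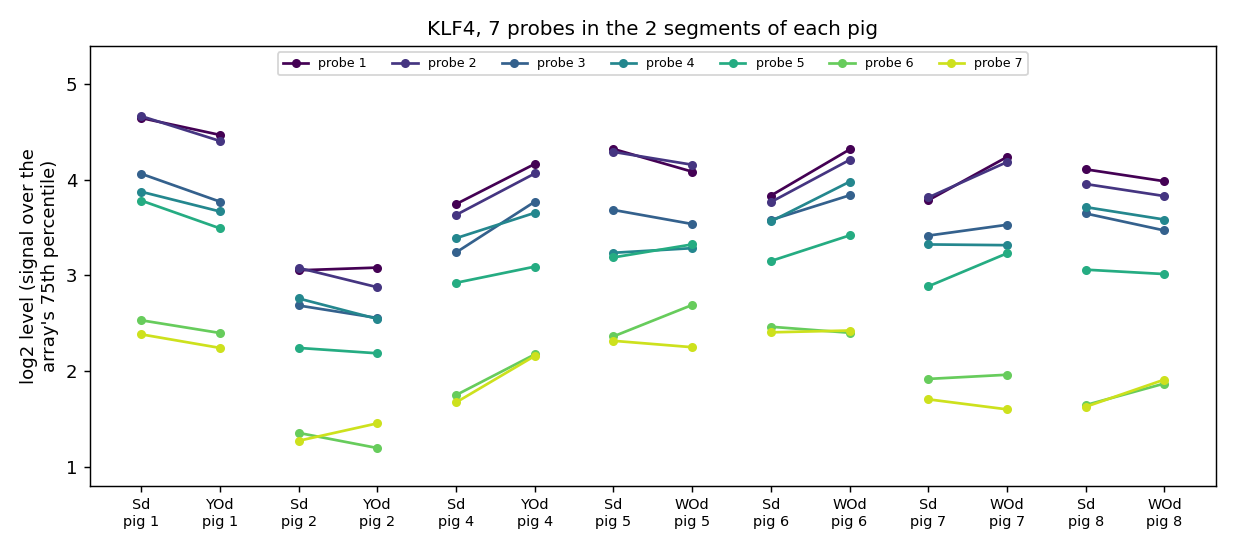
Log2 level (signal over the 75th percentile of the array) of the 7 KLF4 probes on each of the 14 arrays, with a line from the Sd to the onion segment of each pig. The probes keep nearly the same profile over the pigs, with pig 2 the lowest, and the lines are shorter than the distance between pigs 1 and 2.

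KLF5, the crypt factor, was lower in YOd pigs 1 and 4 and not in the WOd pigs as a group. Its Sd and YOd levels were 2.66 and 1.86 in pig 1, 2.37 and 2.32 in pig 2, and 2.57 and 1.87 in pig 4. The WOd pigs went from 2.25 to 2.34 in pig 5, 2.33 to 2.76 in pig 6, 2.57 to 2.42 in pig 7, and 1.64 to 2.09 in pig 8. The effect was -0.52 (standard error 0.19, limma adjusted p = 0.414) for YOd/Sd and 0.20 (standard error 0.18, limma adjusted p = 1.00) for WOd/Sd, with a difference of -0.72 (standard error 0.27, limma adjusted p = 0.743). That difference was -0.58, -0.63, -0.65 and -0.64 without pigs 1, 4, 6 and 8 in turn, and then no longer past the raw threshold. KLF5 probe 2 gave a smaller difference of -0.27 (standard error 0.26). Of the crypt and proliferation genes (6 named of 16), 0 were affected in YOd/Sd or WOd/Sd, beside 4.45% and 1.19% of all named genes, with a median of -0.33 after YOd and -0.14 after WOd, beside 0.14 and 0.04 for all named genes. KLF5 levels had r = -0.13 with the sum of the crypt genes over the 14 arrays. They ran opposite to the sums of several lists, with r = -0.72 for the 6 unsaturated myeloid genes and -0.66 for lymphocyte genes. The r was -0.64 for SMADs and TGF-beta response genes, -0.62 for endothelial, -0.59 for enteroendocrine and -0.54 for fibroblast genes. For smooth muscle and unsaturated goblet genes it was -0.17 and -0.10. The ratio of the lymphocyte sum ran from -1.10 in pig 6 to 0.69 in pig 4. The part of cell composition in the KLF5 values was not tested.

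KLF2, a factor of endothelium and resting lymphocytes, had ratios of 0.86, 0.32 and 0.48 in the YOd pigs and 0.27, -1.26, 0.30 and -0.36 in the WOd pigs. The YOd/Sd effect was 0.55 (standard error 0.17, limma adjusted p = 0.414), just below 1.5-fold. The dim KLF2 probe 2 gave -0.97 (standard error 0.34) for YOd/Sd, in the opposite direction, and its levels were uncorrelated with those of probe 1 (r = -0.01 over 14 arrays). That value depended on the Sd array of pig 1 at -1.16, where the 6 other Sd arrays lay between -4.09 and -3.28. Without pig 1 it was -0.43. The 2 probes of KLF2 thus gave no common direction. KLF6, an early injury-response factor, was bright, with ratios from -0.55 in pig 1 to 0.60 in pig 7 and a mean of 0.04 (standard error 0.15, limma adjusted p = 0.969).

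KLF7 and KLF1 each had 1 array that decided their mean. KLF7 had a ratio of 2.66 in pig 8, from levels of -2.52 and 0.14, and ratios between -0.83 and 0.48 in the other pigs. The WOd/Sd value of KLF7 was 0.83 (standard error 0.44, limma adjusted p = 1.00), and 0.22 without pig 8. KLF1, the erythroid factor, was near the floor and had a ratio of -2.05 in pig 5, from an Sd array at -1.47. Its WOd/Sd value was -0.41 (standard error 0.40, limma adjusted p = 1.00), and 0.14 without pig 5. In the YOd pigs KLF1 had ratios of 0.43, 0.70 and 0.51, with the Sd array of pig 2 at the floor, and the YOd/Sd value was 0.55 (standard error 0.15, limma adjusted p = 0.414), below 1.5-fold. The dim KLF11 probe 3 likewise read -0.38 on the WOd array of pig 8 and was at the floor on 9 of the 14 arrays.

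KLF17, known mainly from germ cells and the early embryo, was read as a bright probe in these scrapings, with signals from 1988 to 14975 on the 14 arrays. Its ratios were -0.48, -0.31 and -0.57 in the YOd pigs, and 0.25, 0.36, -0.72 and 0.14 in the WOd pigs. The effect was -0.46 (standard error 0.15, limma adjusted p = 0.414) for YOd/Sd and 0.01 (standard error 0.22, limma adjusted p = 1.00) for WOd/Sd. The levels of KLF17 ran opposite to those of KLF16 (r = -0.90 over 14 arrays), the lowest value of the 78 pairs. Both also moved with the 75th percentile of the arrays, with r = 0.77 for KLF17 and -0.79 for KLF16. Only 1 probe measured KLF17, so a second reading of this profile was not at hand.

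Of the ligands and receptors of the TGF-beta pathway, 15 of 18 were named on the array. After YOd 0 of the 14 tested were affected, beside 4.45% of all named genes, and after WOd 1 of 13 was, beside 1.19% affected and 0.778% higher. The affected gene was GDF15, a stress-induced ligand, with a WOd/Sd log2 ratio of 0.70 (standard error 0.20, limma adjusted p = 1.00) and a YOd/Sd ratio of -0.51 (standard error 0.21, limma adjusted p = 0.414). TGFB1 had 0.27 (standard error 0.15) for YOd/Sd and -0.04 (standard error 0.20) for WOd/Sd. Of the SMADs and TGF-beta response genes, 11 of 21 were named and 0 were affected in YOd/Sd, in WOd/Sd or over the 7 pigs, where 1.24% of the named genes were. At these shares fewer than 1 call would be found in a list of this length, and nothing is read from the counts. The feedback inhibitor SMAD7 had 0.31 (standard error 0.16) and -0.06 (standard error 0.21). The medians of this list were 0.14 and -0.03, beside 0.14 and 0.04 for all named genes. The related SP factors and the red blood cell genes had no named probe. Of the cell type lists, CCK of the enteroendocrine cells was affected in YOd/Sd (0.92, standard error 0.27, limma adjusted p = 0.414), as was the neutrophil gene S100A9 (0.67, standard error 0.28, limma adjusted p = 0.414), beside 3.51% of the named genes that were higher.

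Over the 14 arrays, the named genes whose level followed KLF10 most closely were POLD3 (r = 0.91), JAK1 (0.84), NHLRC2 (0.83), DYNC1LI2 (0.77) and VDAC1 (0.77), of 2186 genes compared. Their mean ratios were smaller than that of KLF10, between 0.16 and 0.29. POLD3 and DYNC1LI2 were higher after onion in 7 of 7 pigs, as were 1.34% of all probes. As these genes were picked for following KLF10 over all 14 arrays, a rise after onion is partly built into the choice. On the 7 Sd arrays, which are among those 14, POLD3 had r = 0.87. For KLF4 the closest were S100A14 (r = 0.92), TMBIM6 (0.91), HYAL2 (0.88), EPHX2 (0.88) and IYD (0.87). These values are descriptions over arrays that share pigs, slides and scaling. KLF10 itself followed KLF11 with r = 0.50, KLF4 with r = 0.12 and KLF15 with r = -0.49.

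The choice of KLF9, KLF10 and KLF15 rested on a change over 1.5-fold in 3 of 7 pigs. By the signals used here, KLF10 exceeded it upwards in 4 pigs, where 3.78% of all probes did so in at least 3 pigs. KLF15 exceeded it downwards in 3 pigs, where 2.23% did. KLF9 was past it in 3 pigs, with 2 upwards and 1 downwards. KLF1, near the floor and not on the list, also exceeded it in 3 pigs, with 2 upwards and 1 downwards. Just outside by their probe 1, KLF2, KLF5, KLF7, KLF11 and KLF12 exceeded it in 2 pigs each. KLF11 probe 2, above the floor on all 14 arrays, exceeded it upwards in 3 pigs. So did KLF11 probe 3, which was above the floor on 5 arrays. By those probes KLF11 was thus not outside. The share of all probes was not taken for both directions together or for 2 pigs. Nothing is therefore read from the counts of KLF9, KLF1 and the genes just outside.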

How the data were processed

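Gene expression was measured on 1-colour Agilent arrays, 14 in all. Per the labels, the deposited scanner files came from Feature Extraction 10.7.3.1, and the processed, median and background intensity of the spots were read from them. The authors also deposited log2 values of the same arrays, centred per probe, which served as an alternative. The genome build and the normalization of these log2 values are not given in the sources used here.

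From the processed signal, outlier spots were left out and spots of a probe averaged. Each array was scaled to its own 75th percentile. A floor was then set at the pooled 40th percentile, and log2 was taken. Probes were named through RefSeq accessions and Sscrofa11.1, which matched 6686 probes and was used for names only. No sequence or coordinate is given. Probes with a missing array were not fitted, and none of these was a Krüppel-like factor probe.

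All probes above the floor on at least as many arrays as the smaller group held entered a limma 3.58.1 model (R 4.3.3) that held the pig as a block, because the study's analysis was paired. Both arrays of a pig deviated together from their group means (r between 0.311 and 0.707 in the 7 pairs). The Benjamini-Hochberg adjustment covered all probes tested. The number of arrays limits the precision. The fits were tested on simulated data. Python 3.11.15 was used for the other steps.

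The members and lists were chosen with earlier results of these data known. Every Krüppel-like factor gene is named, as are members of the pathway and cell type lists past the thresholds and the 5 genes whose level correlated best with KLF10 and with KLF4. TGFB1 and SMAD7 were named beyond that rule, after their values were seen. Alternatives covered the normalization, background correction (normexp, offset 50, on the median intensity, as the files hold no mean intensity), floor, filter, genes counted, the authors' values, the replicate block, the slide and each pig left out.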

Additional observations from a re-analysis of the deposited data

Results flagged for a closer look

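Outlying samples were searched in 39 groups of values of the Krüppel-like factor genes by the gap of the most extreme sample to its neighbour. Of these, 3 stood out. About 1 in 20 groups is flagged by chance, so that flags among 39 groups are to be looked for without any true outlier. KLF5 on the Sd array of pig 8 was at a log2 level of 1.6441, with the nearest Sd array at 2.2495. KLF6 on the Sd array of pig 6 was at 6.3995, with the nearest at 5.2335. The KLF7 ratio of pig 8 was 2.6622, with the nearest pig at 0.4813.

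Outside KLF10, KLF4 and the study's list, 26 probes were tested for a difference between the YOd and WOd effects. For 4 of them it passed a raw limma p under 0.05 and 1.5-fold, beside 5.67% of all probes. KLF9 probes 2 and 3 were among the 26 and not among the 4. The differences on the log2 scale were 0.6365 for KLF8 probe 1, 0.7644 for KLF11 probe 1, -0.7223 for KLF5 probe 1 and -1.443 for KLF2 probe 2. None passed the adjustment over all 27685 probes (limma adjusted p = 0.743 for each). The KLF2 value was -0.90 without pig 1. Other probes of these genes were not called, with 0.33 for KLF11 probe 2, -0.27 for KLF5 probe 2 and 0.82 for KLF2 probe 1.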

How the results depend on the processing

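The KLF10 log2 ratios stayed above 0 under every alternative for YOd/Sd (0.29 to 0.93), WOd/Sd (0.57 to 0.65) and the 7 pigs (0.46 to 0.76), while YOd minus WOd ran from -0.29 to 0.32. KLF4 in YOd/Sd was -0.2187 without scaling between arrays. The counts of affected probes moved far more, and the cause was not tested beyond the fewer probes or arrays a setting leaves. They are given in the order YOd/Sd (1303 of all probes, 4 Krüppel-like factor probes), WOd/Sd (327 and 4), 7 pigs (216 and 3) and YOd minus WOd (1570 and 5), where they moved by over 1.5 times.

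Without scaling, 3039 probes were affected in YOd/Sd and 2705 in YOd minus WOd, with 2 Krüppel-like factor probes in the latter. With normexp the counts were 439, 59, 64 and 668 for all probes and 2, 2, 1 and 2 for the family. Without a filter on dim probes they were 284, 128 and 133 in the first 3 comparisons, with 1 family probe in YOd/Sd and 3 in YOd minus WOd. With named genes only they were 110, 29, 30 and 91, and 2, 2 and 1 for the family in the first 3 comparisons. With the authors' processed values they were 98, 53, 70 and 368, with 1 family probe in YOd/Sd and 1 in YOd minus WOd. With the slide as a block beside the pig they were 3349, 702, 538 and 2839, with 10, 6 and 9 family probes in YOd/Sd, the 7 pigs and YOd minus WOd. Without pigs 2 and 7, an alternative added after seeing the data, they were 3357, 723, 551 and 2842, with 10, 6 and 8 in the same comparisons. A floor at the 20th percentile gave 781 in WOd/Sd and 606 over the 7 pigs. Probes well above background on all arrays gave 174 and 123 there, with 2 and 1 family probes. Quantile normalization and no floor each gave 2 family probes in YOd/Sd.

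Without the replicate block, that is without the pairing of segments by pig, 327, 132, 102 and 303 probes were affected, with 1 family probe in YOd/Sd, 0 in WOd/Sd and 0 in YOd minus WOd.

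With each pig left out in turn, all affected probes ranged from 833 (without pig 4) to 3357 (without pig 2) in YOd/Sd, 469 to 723 (without pig 7) in WOd/Sd, 173 to 349 (without pig 7) over the 7 pigs, and 760 (without pig 1) to 2422 (without pig 2) in YOd minus WOd. The count was also 616 and 539 without pigs 5 and 8 in WOd/Sd and 823 without pig 4 in YOd minus WOd. Family probes ranged from 3 to 10, 3 to 6, 1 to 6 and 0 to 7. Of the results for single Krüppel-like factor genes other than KLF10 and KLF4 under the alternatives, 919 kept their side of the thresholds. A call was lost in 31 and gained in 35, and 0 of the called values turned. Most of the 919 were not called in the main fit either. All 31 losses fell on the few called values, those of KLF5, KLF8, KLF9, KLF11 and KLF15. The number of arrays limits all of these counts.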
